A study of Arabidopsis thaliana with 12 samples.

Results

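The Arabidopsis thaliana plastid genome keeps a small set of genes for its own upkeep alongside its photosynthesis genes, and 35 such loci were followed here of 33602 gene models counted. They were chosen by gene name, with earlier results of these data known. The set covers every plastid-encoded ribosomal protein gene (rps for the small subunit, rpl for the large subunit), with rps12 by its first-exon locus only. It also covers the 4 rpo genes and the loci of matK, accD, clpP, ycf1 and ycf2. There were 13 small-subunit loci, 11 large-subunit loci, 4 polymerase loci and 7 others. The samples came from plants whose titles give a DYW2 T-DNA insertion as homozygous (dyw2_HO) or heterozygous (dyw2_HE) and a NUWA (also called OTP100) insertion as homozygous (nuwa_HO) or heterozygous (nuwa_HE), with 3 libraries per group. Every plant group carries an insertion, so the comparisons set homozygous against heterozygous plants and hold no plants without one. All plants grew on soil to 1 Boyes growth stage, and a sample mixes rosette, stem and flower bud. Total RNA was depleted of ribosomal RNA and made into stranded libraries. The age of the plants in days and the number of plants per sample were not given in the labels, and if the 3 samples of a group were not separate plants, the spread behind the p-values may be technical. The genotype field contradicts the title of 2 libraries: dyw2_HO replicate 2 is entered there as homozygous for nuwa, and nuwa_HO replicate 3 as homozygous for dyw2. Titles set the groups, and counts without both libraries are given beside the results they change.

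Plastid genes are transcribed by a bacterial-type RNA polymerase (PEP), whose core subunits are the plastid genes rpoA, rpoB, rpoC1 and rpoC2, and by nuclear-encoded phage-type enzymes (NEP). Photosynthesis genes depend mainly on PEP, while rpoB, accD and ycf2 are textbook examples of genes read by NEP, and many others have promoters for both. The ribosomal proteins build the plastid's bacterial-type ribosome, MatK is a maturase for introns of the plastid, AccD is a subunit of the acetyl-CoA carboxylase that starts fatty acid synthesis, and ClpP is the proteolytic subunit of the plastid Clp protease. Ycf1 and Ycf2 are large proteins tied to protein import at the inner envelope. DYW2 and NUWA are nuclear-encoded pentatricopeptide repeat proteins of the organelles, known for roles in RNA editing.

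Of the 35 loci, 10 are the paired copies of rpl2, rpl23, rps7, ycf2 and ycf1, which lie in or reach into the inverted repeat, a stretch present at 2 places of the 154478 base plastid genome. Reads that mapped equally well to more than one place had been removed before counting. In the TAIR10.1 plastid sequence, no 50-base window of the coding sequences of rpl2, rpl23, rps7 and ycf2, at either copy, occurred at only one place in the genome. The corresponding 8 loci held no counts in any of the 12 libraries, with the exception of the second rpl23 locus (ATCG01300), which held 0 to 3 counts per library and 10 in all. Reads that lie wholly within such sequences do not pass that filter, so the zeros say nothing of the level of these messages, and these 8 loci were not tested. The removed reads were 5.94% to 6.06% of mapped reads in dyw2_HO, 2.79% to 3.17% in dyw2_HE, 3.02% to 3.39% in nuwa_HO and 2.54% to 2.93% in nuwa_HE, and which loci they came from was not tested. The long copy of ycf1 (ATCG01130) kept 9064 to 31176 counts, and 81.5% of its windows were at one place. The short copy (ATCG01000) kept 12 to 103 counts, and 2 of its 983 windows were at one place. The sequences of the duplicated and overlapping loci show what the counting could and could not separate. The ycf1 copies share their first 1030 bases. The lines give the last 30 of these in lower case and the 30 genome bases that follow at each place in capitals. The short copy is 1032 bases long and ends at Pltd:110436, so most of its capitals lie past the end of its coding sequence. The rpl23 line is the coding sequence of both copies, which differ at 0 bases. The last line gives the 16 bases that lie both in the end of rpl22 and in the start of rps3, in capitals. Positions on the TAIR10.1 plastid are Pltd:110405-110464 on the plus strand and Pltd:128185-128244 on the minus strand for ycf1, Pltd:85862-86143 on the minus strand and Pltd:152506-152787 on the plus strand for rpl23, and Pltd:83452-83497 on the minus strand for the rpl22 and rps3 overlap.
ycf1 short copy: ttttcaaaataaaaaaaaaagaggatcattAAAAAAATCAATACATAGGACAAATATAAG
ycf1 long copy: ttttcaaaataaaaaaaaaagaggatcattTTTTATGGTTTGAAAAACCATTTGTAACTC
rpl23, both copies: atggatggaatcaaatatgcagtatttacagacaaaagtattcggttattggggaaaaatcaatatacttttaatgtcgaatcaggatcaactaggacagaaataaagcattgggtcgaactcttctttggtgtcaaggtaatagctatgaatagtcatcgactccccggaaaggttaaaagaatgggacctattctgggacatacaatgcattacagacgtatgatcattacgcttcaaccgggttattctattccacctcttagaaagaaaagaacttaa
rpl22 end and rps3 start: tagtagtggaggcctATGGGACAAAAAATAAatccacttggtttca
The short ycf1 copy also overlaps ndhF by 39 bases on the opposite strand, and since no source used here says whether counting used the strand, its few reads and those of ndhF cannot be told apart. Among the other 25 loci, 20 had every window at one place, and rps2, rpoC2, rpoB and rpoA had 84.0% to 98.0%. For rps19, next to rpl2, 166 of 230 windows (72.2%) were at one place, so the filter also reached reads of rps19 and its counts are low by an unknown amount. The locus of rps12 covers its first exon only, and the other exons of that message were not counted in it. Windows were taken within exons of the coding sequence.

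The 12 libraries held 13329334 to 97804029 counts, and the dyw2_HO libraries were the shallowest with 13329334, 24632485 and 16347805. All 27 remaining loci had enough reads for testing, and the short ycf1 copy was the lowest of them. Transcripts of the targeted genes were not lower in the homozygous libraries: DYW2 (AT2G15690) stood at 9.50 to 11.02 CPM in dyw2_HO and at 5.57 to 7.08 CPM in dyw2_HE, and NUWA (AT3G49240) at 0.761 to 1.34 CPM in nuwa_HO and at 0.351 to 0.905 CPM in nuwa_HE, in CPM after TMM scaling. The positions of the insertions in the transcripts are not known here, and these counts do not check the labels. Marker levels of the labelled flower buds differed between libraries. The mean log2 CPM of 7 floral organ genes was -0.91 to 0.18 in dyw2_HO and 2.44 to 3.82 in dyw2_HE, and it was -1.53, -1.92 and 2.95 in nuwa_HO and 3.17 to 3.84 in nuwa_HE, with all 7 detected in each group. Of 6 tapetum and pollen genes, only AMS had counts in dyw2_HO, the other 5 (MS1, A9, TDF1, VGD1 and PPME1) being at 0, and all 6 had counts in the other groups. The mean log2 CPM of these 6 genes was -4.56 to -4.29 in dyw2_HO, -2.01 to 1.55 in dyw2_HE, -4.56, -4.14 and 0.19 in nuwa_HO and 0.40 to 1.32 in nuwa_HE. The first nuwa_HO library was thus at the lowest dyw2_HO value, and the 0.19 came from the nuwa_HO library of contradicted genotype. For 6 stem wall genes, all detected in each group, it was -0.24 to 0.71 in dyw2_HO, 0.56 to 1.78 in dyw2_HE, 0.09 to 1.57 in nuwa_HO and -0.07 to 1.60 in nuwa_HE. In such pooled tissue, fewer cells of a type and less RNA per cell cannot be told apart.

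Within the plastid's own messages, the housekeeping genes took up a larger share in dyw2_HO than in any other group. They made up 6.05%, 5.25% and 5.90% of plastid protein-coding counts in the dyw2_HO libraries, against 2.45%, 2.31% and 1.93% in dyw2_HE. In nuwa_HO the shares were 1.90%, 2.17% and 2.05%, against 2.15%, 1.64% and 1.94% in nuwa_HE. The 3 dyw2_HO libraries lay above all 9 others, while nuwa_HO and nuwa_HE overlapped. The mean difference was 3.502 percentage points for dyw2_HO minus dyw2_HE and 0.13 for nuwa_HO minus nuwa_HE, and no test was made of this sum over chosen genes. Leaving the most abundant plastid message, psbA, out of the denominator gave differences of 6.997 and -0.41 percentage points. All plastid protein-coding genes together made up a smaller part of each dyw2_HO library, 26.5%, 31.0% and 32.4% of all counts, against 57.1%, 63.3% and 62.9% in dyw2_HE. As a share of all counts, the housekeeping loci therefore differed less, with 1.61%, 1.63% and 1.91% in dyw2_HO and 1.40%, 1.46% and 1.21% in dyw2_HE. The ranges of these shares did not overlap. The floral gene level moved with the dyw2 groups in the values above. The nuwa_HO replicates 1 and 2, with floral levels at or below those of dyw2_HO, had housekeeping shares of 1.90% and 2.17%. The part of flower bud content in these differences was not tested. The covariate fit given with the gene counts cannot separate it from genotype, since floral levels of dyw2_HO and dyw2_HE did not overlap.

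**Figure D1:**
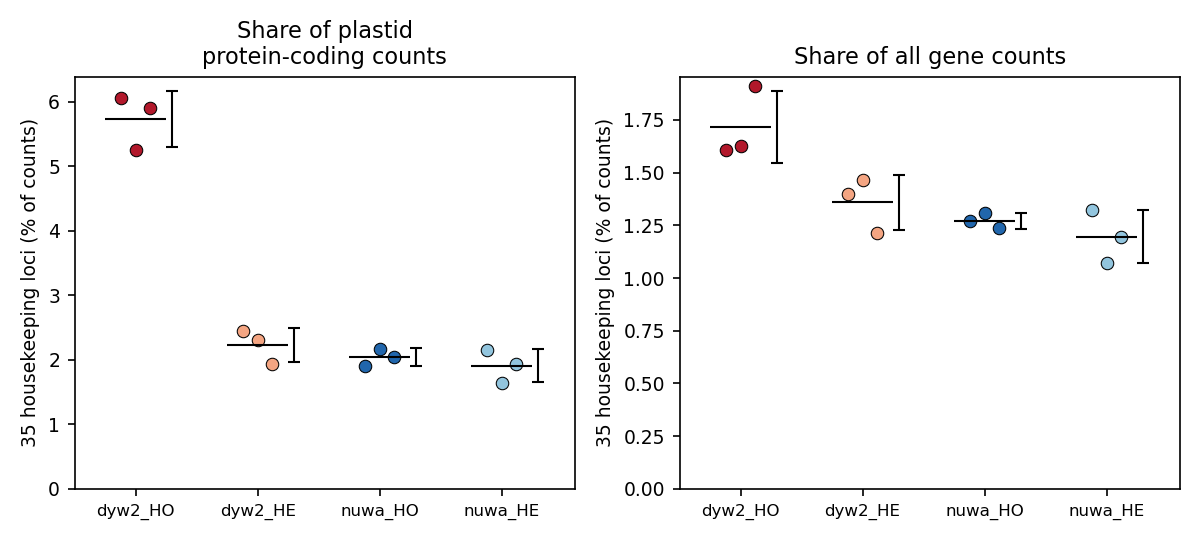
Counts of the 35 housekeeping loci as a percentage of plastid protein-coding counts (left) and of all gene counts (right), 1 point per library, with the group mean as a line and 1 SD as a bar (n = 3). The dyw2_HO libraries lie at 5.25% to 6.05% on the left, above the other 9, and at 1.61% to 1.91% on the right.

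Because the plastid share of the libraries differed so much, a change of a single plastid gene depends on what it is measured against, and each gene is given on named scales. The TMM scale sets the bulk of tested genes, nearly all nuclear, at no change. The plastid scale sets the bulk of plastid protein-coding genes at no change, and its unit here is CPM of effective plastid counts. The housekeeping genes are themselves among those reference genes. On the TMM scale, 18 of 27 tested housekeeping genes were lower in dyw2_HO than in dyw2_HE, 0 were higher and 9 did not pass an adjusted p of 0.05 (edgeR quasi-likelihood test, Benjamini-Hochberg adjustment). In the same TMM comparison 62.9% of all 21213 genes passed, 32.8% as lower and 30.1% as higher, so the calls of housekeeping genes stand on a background in which most genes moved. With plain library totals in place of TMM, 4 housekeeping genes were lower and 19 higher. The share of all genes called in that fit is not given here, so these counts show only how direction depends on scaling. The median log2 change of the housekeeping genes on the TMM scale was -0.55, beside -0.05 over all tested genes. On the plastid scale, 21 of the 27 were higher in dyw2_HO, 2 were lower and 4 were not called, with a median log2 change of 1.21. Of all genes on that scale 82.7% passed, 76.6% as higher and 6.07% as lower, with a median of 1.71. The TMM factors behind these values were 2.23, 2.06 and 2.02 in the dyw2_HO libraries and 0.617 to 0.985 in the other 9. The count of 18 on the TMM scale fell to 10 without dyw2_HO replicate 1, 11 without dyw2_HO replicate 2 and 10 without dyw2_HE replicate 2, and it was 12 without both libraries of contradicted genotype. The calls lost in these 4 cases included those of rps3, rps19, rpl16, rpl36 and rpoA, all of 1 transcription unit and at log2 changes of -0.55 to -0.41. With groups taken from the genotype field in place of the titles, 0 of the 27 were called by edgeR, 0 had an unadjusted p under 0.05 and DESeq2 called 0. Over all genes edgeR then called 0, 5346 had an unadjusted p under 0.05 and DESeq2 called 1894. With the floral gene level as a covariate, an alternative chosen after seeing the data, 19 were lower on the TMM scale, and on the plastid scale 20 were higher and 2 lower. That fit cannot separate flower bud content from genotype, because the floral levels of dyw2_HO and dyw2_HE did not overlap.

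**Figure D2:**
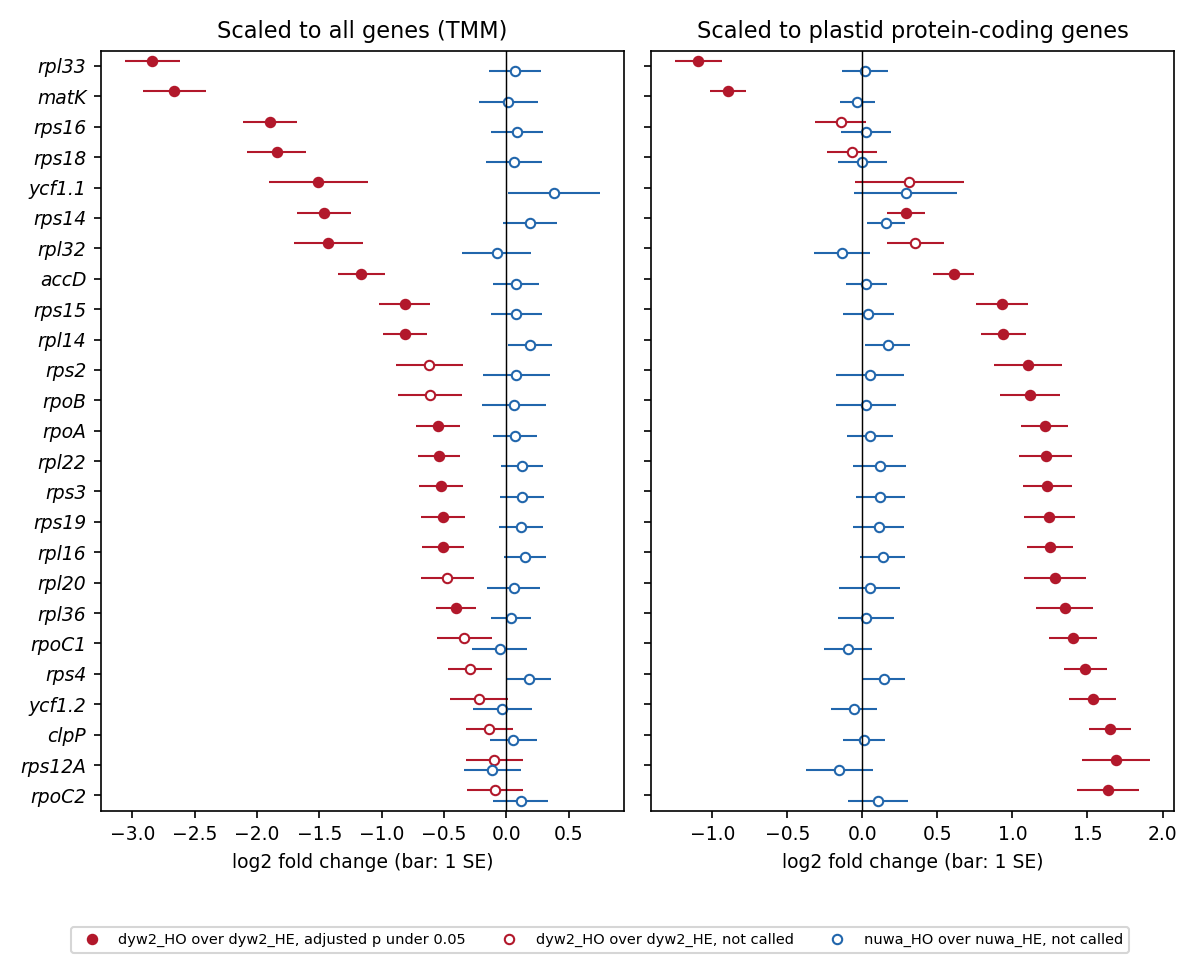
Log2 fold change of 25 of the 27 tested housekeeping genes in dyw2 (red) and nuwa (blue), homozygous over heterozygous, on the TMM scale (left) and the plastid scale (right), with bars of 1 SE and filled points for an adjusted p under 0.05. The order of genes runs from rpl33, at -2.84 on the left and -1.09 on the right, to rpoC2, at -0.09 and 1.64, while no nuwa point is filled.

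Among small-subunit ribosomal protein genes, 8 of 11 tested were lower in dyw2_HO on the TMM scale, beside 32.8% of all genes. On the plastid scale 9 were higher and 0 lower, beside 76.6% and 6.07% of all genes. The median log2 change of the 11 was 1.21 there, beside 1.71 over all genes. The steepest on the TMM scale was rps16, whose gene holds an intron. It stood at 10.9, 11.5 and 15.5 CPM on the TMM scale in dyw2_HO, against 39.6, 54.6 and 47.2 in dyw2_HE, a log2 change of -1.90 ± 0.22 (SE, edgeR adjusted p = 1.94e-05). Scaled to plastid genes, the same gene read 63.4, 63.0 and 62.2 in dyw2_HO and 68.7, 69.3 and 70.5 in dyw2_HE, so its groups did not overlap on either scale, but the plastid-scale change of -0.14 ± 0.17 did not pass the test. The gene rps18, next to rpl33, had 67.7, 90.9 and 88.6 CPM on the TMM scale in dyw2_HO, against 250 to 356 in dyw2_HE, a log2 change of -1.84 ± 0.23 (edgeR adjusted p = 4.07e-05). Relative to plastid genes, its change was -0.07 ± 0.17, which was not called. At the other end, rps4 had 361, 415 and 434 CPM on the TMM scale in dyw2_HO and 429, 589 and 463 in dyw2_HE, with overlapping groups and a log2 change of -0.29 ± 0.18 that was not called. Among plastid messages, rps4 rose, with 2101, 2269 and 1742 in dyw2_HO against 744, 748 and 692 in dyw2_HE, a log2 change of 1.49 ± 0.14 (edgeR adjusted p = 3.28e-06). The exon locus of rps12 (ATCG00065), the first part of a message joined by trans-splicing, read 7.54, 12.4 and 9.68 CPM on the TMM scale in dyw2_HO and 9.42, 13.6 and 8.72 in dyw2_HE, which overlapped. On the plastid scale it had the largest log2 change of the 27, 1.69 ± 0.23 (edgeR adjusted p = 2.1e-05). The changes of clpP at 1.65 and rpoC2 at 1.64 lay within that standard error of it. Other small-subunit genes were rps14, at -1.46 on the TMM scale and 0.29 on the plastid scale, and rps2, rps3, rps15 and rps19, at -0.82 to -0.51 on the TMM scale and 0.93 to 1.25 on the plastid scale. Of these, rps2 was not called on the TMM scale, and the plastid-scale call of rps14 (edgeR adjusted p = 0.0484) was lost in 8 of 12 fits that left out a library.

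The large-subunit genes held the steepest change of the whole set, in rpl33. Its messages read 27.6, 32.3 and 40.7 CPM on the TMM scale in dyw2_HO, against 220, 276 and 224 in dyw2_HE. The groups were far apart, with a log2 change of -2.84 ± 0.22 or a 7.17-fold lower level (edgeR adjusted p = 1.41e-06). Scaled to plastid genes, rpl33 also fell, with 161, 177 and 163 in dyw2_HO against 382, 351 and 335 in dyw2_HE, a log2 change of -1.09 ± 0.15 (edgeR adjusted p = 2.88e-05). With library totals in place of TMM it was -1.53. The next, rpl32, read 200, 309 and 315 CPM on the TMM scale in dyw2_HO and 503, 928 and 785 in dyw2_HE, a log2 change of -1.43 ± 0.28 (edgeR adjusted p = 0.000943). Its plastid-scale change of 0.35 ± 0.19 was not called. The smallest changes on the TMM scale were those of rpl36 and rpl20. For rpl36, which encodes the smallest protein of the subunit, the values were 81.0, 87.7 and 106 CPM in dyw2_HO and 119, 145 and 101 in dyw2_HE, which overlapped, with a log2 change of -0.41 ± 0.16 (edgeR adjusted p = 0.0422). That call was lost without dyw2_HO replicate 1 or 2, dyw2_HE replicate 1 or 2, nuwa_HO replicate 2, or nuwa_HE replicate 1 or 3. For rpl20 they were 87.8, 67.8 and 116 CPM in dyw2_HO and 113, 164 and 101 in dyw2_HE, with a log2 change of -0.47 ± 0.21 that was not called. Relative to plastid genes, rpl36 and rpl20 were higher by 1.35 ± 0.19 and 1.28 ± 0.21 (log2). The coding sequences of rpl33, which fell furthest, and of the 2 loci with the same model length of 114 bases, whose names could not be separated by length and rest on their locus identifiers, are given for comparison, each whole. They lie at Pltd:67488-67688 on the plus strand for rpl33, Pltd:79489-79602 on the minus strand for rpl36 and Pltd:69611-69724 on the minus strand for rps12.
rpl33: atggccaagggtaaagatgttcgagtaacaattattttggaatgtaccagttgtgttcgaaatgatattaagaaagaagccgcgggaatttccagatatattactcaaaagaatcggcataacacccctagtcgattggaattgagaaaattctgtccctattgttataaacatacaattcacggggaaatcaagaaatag
rpl36: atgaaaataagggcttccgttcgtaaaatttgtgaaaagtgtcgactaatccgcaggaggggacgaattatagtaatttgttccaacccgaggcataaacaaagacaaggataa
rps12, the first exon: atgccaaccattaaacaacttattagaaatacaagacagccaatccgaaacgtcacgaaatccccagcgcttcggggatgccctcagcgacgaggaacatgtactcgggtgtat

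The 4 genes of the PEP core had a median log2 change of -0.44 in dyw2 on the TMM scale. The medians of the tested small-subunit and large-subunit genes were -0.55 and -0.54. On the TMM scale only rpoA was called. It read 358, 382 and 466 CPM in dyw2_HO and 539, 725 and 500 in dyw2_HE, without overlap, a log2 change of -0.55 ± 0.17 (edgeR adjusted p = 0.0165) that was lost without dyw2_HO replicate 1 or 2 or dyw2_HE replicate 2. For rpoB, the first gene of its unit, the TMM-scale values were 180, 133 and 252 CPM in dyw2_HO and 286, 334 and 244 in dyw2_HE, which overlapped, and the log2 change was -0.61 ± 0.26 (not called). The next gene, rpoC1, read 264, 220 and 355 CPM in dyw2_HO and 331, 404 and 325 in dyw2_HE, with -0.34 ± 0.22 (not called). The last, rpoC2, read 339, 297 and 484 CPM in dyw2_HO and 424, 465 and 305 in dyw2_HE, with -0.09 ± 0.22 (not called). In all 3 the lowest dyw2_HO library was replicate 2, the library whose genotype field names the other mutant. On the TMM scale it also lay below every nuwa_HO library in these 3 genes, which for rpoB were at 224 to 376 CPM. On the plastid scale it lay above every nuwa_HO library in them, for rpoB at 727 against 382 to 511. In rps18 and clpP the same replicate was the highest of dyw2_HO, at 90.9 and 1719 CPM on the TMM scale. Among plastid messages, all 4 were higher in dyw2_HO, beside 76.6% of all genes. The log2 changes were 1.12 ± 0.20 for rpoB, 1.21 ± 0.16 for rpoA, 1.40 ± 0.16 for rpoC1 and 1.64 ± 0.20 for rpoC2. For rpoC2 that meant 1973, 1627 and 1940 in dyw2_HO against 736, 590 and 455 in dyw2_HE, a 3.11-fold higher level (edgeR adjusted p = 1.26e-05).

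The remaining genes split. The maturase gene matK fell nearly as far as rpl33, with 515, 637 and 744 CPM on the TMM scale in dyw2_HO against 3260, 4966 and 3783 in dyw2_HE, a log2 change of -2.66 ± 0.25 (edgeR adjusted p = 5.02e-06). Its groups were also apart on the plastid scale, with 2995, 3489 and 2982 in dyw2_HO against 5657, 6305 and 5648 in dyw2_HE, a log2 change of -0.90 ± 0.12 (edgeR adjusted p = 1.79e-05). Scaling to summed plastid counts ended that plastid-scale call, with a log2 change of -0.31. The gene accD read 299, 325 and 355 CPM on the TMM scale in dyw2_HO and 633, 861 and 704 in dyw2_HE, a log2 change of -1.17 ± 0.19 (edgeR adjusted p = 0.000245). On the plastid scale it was higher instead, by 0.61 ± 0.14 (edgeR adjusted p = 0.000991). The protease gene clpP read 1461, 1719 and 1624 CPM on the TMM scale in dyw2_HO and 1480, 2096 and 1708 in dyw2_HE, with overlap and a log2 change of -0.14 ± 0.19 (not called). Scaled to plastid genes, clpP rose to 8500, 9410 and 6511 in dyw2_HO, against 2568, 2661 and 2550 in dyw2_HE, a 3.14-fold higher level (edgeR adjusted p = 1.69e-06). The long ycf1 copy read 305, 374 and 492 CPM on the TMM scale in dyw2_HO and 370, 577 and 420 in dyw2_HE, with a log2 change of -0.22 ± 0.23 (not called), and rose on the plastid scale by 1.53 ± 0.16 (edgeR adjusted p = 4.26e-06). The short ycf1 copy read 0.404, 0.514 and 0.425 CPM on the TMM scale in dyw2_HO and 0.675, 1.91 and 1.29 in dyw2_HE, a log2 change of -1.51 ± 0.40 (edgeR adjusted p = 0.00606). It rests on the few reads described above.

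A common scaling factor shifts all genes of a library together, so ratios of counts within a library need no scaling. Pairs of neighbours that belong to known transcription units were therefore compared within libraries. These 8 pairs were chosen after the changes of single genes had been seen, and the smallest p that an exact two-sided permutation test of 3 against 3 libraries can give is 0.1, so no pair could pass. The rpl33 and rps18 genes lie next to each other on the plus strand, yet the ratio of rpl33 to rps18 counts was 0.408, 0.355 and 0.460 in dyw2_HO, against 0.881, 0.777 and 0.796 in dyw2_HE. It was 0.761, 0.846 and 0.802 in nuwa_HO, against 0.728, 0.823 and 0.843 in nuwa_HE. The dyw2_HO ratio was thus 0.496 times that in dyw2_HE (exact permutation p = 0.1, 0.32 after Benjamini-Hochberg adjustment over 16 comparisons), without overlap. Within the rpoB, rpoC1 and rpoC2 unit, the ratio of the last gene to the first was 1.88, 2.24 and 1.92 in dyw2_HO, against 1.48, 1.39 and 1.25 in dyw2_HE, again without overlap (exact permutation p = 0.1). In the long ribosomal protein unit that runs from rpl23 to rpoA, the ratio of rpoA to rps19 was 3.15, 3.16 and 2.99 in dyw2_HO, against 3.19, 3.23 and 3.08 in dyw2_HE, and the groups overlapped. The 9 tested genes of that unit were all called on both scales, at -0.81 to -0.41 (TMM scale) and 0.94 to 1.35 (plastid scale) in log2 change, though on the TMM scale the call of rpl14 alone held in every fit that left out a library. In the clpP, rps12 and rpl20 cluster, the dyw2_HO over dyw2_HE factors were 1.02 for rps12 to clpP and 0.784 for rpl20 to clpP, both with overlapping groups, which does not show that the proportions were alike.

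Housekeeping genes that share a unit with photosynthesis or ndh genes were set against those neighbours in the same way. The gene rps2 heads the unit of the ATP synthase genes, and the ratio of rps2 to atpI counts was 0.174, 0.122 and 0.176 in dyw2_HO, against 0.0705, 0.0553 and 0.0413 in dyw2_HE. The dyw2_HO ratio was 2.86 times that in dyw2_HE, without overlap (exact permutation p = 0.1), with atpI at a TMM-scale log2 change of -2.19 ± 0.28 and rps2 at -0.62 ± 0.27. The gene rps15 lies upstream of ndhH, and its ratio to ndhH was 0.215, 0.219 and 0.206 in dyw2_HO, against 0.110, 0.107 and 0.107 in dyw2_HE, a factor of 1.98 without overlap (exact permutation p = 0.1). The gene rps14 is transcribed with the photosystem I genes psaA and psaB. Its ratio to psaB was 0.235, 0.258 and 0.233 in dyw2_HO, against 0.267, 0.308 and 0.332 in dyw2_HE, a factor of 0.803 (exact permutation p = 0.1). In this trio the TMM-scale log2 changes were -1.46 for rps14, -1.14 for psaB and -1.12 for psaA, and psaA and psaB had the smallest falls of the photosynthesis genes tested. In nuwa all 8 ratios overlapped between nuwa_HO and nuwa_HE, at factors of 0.892 to 1.06.

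**Figure D3:**
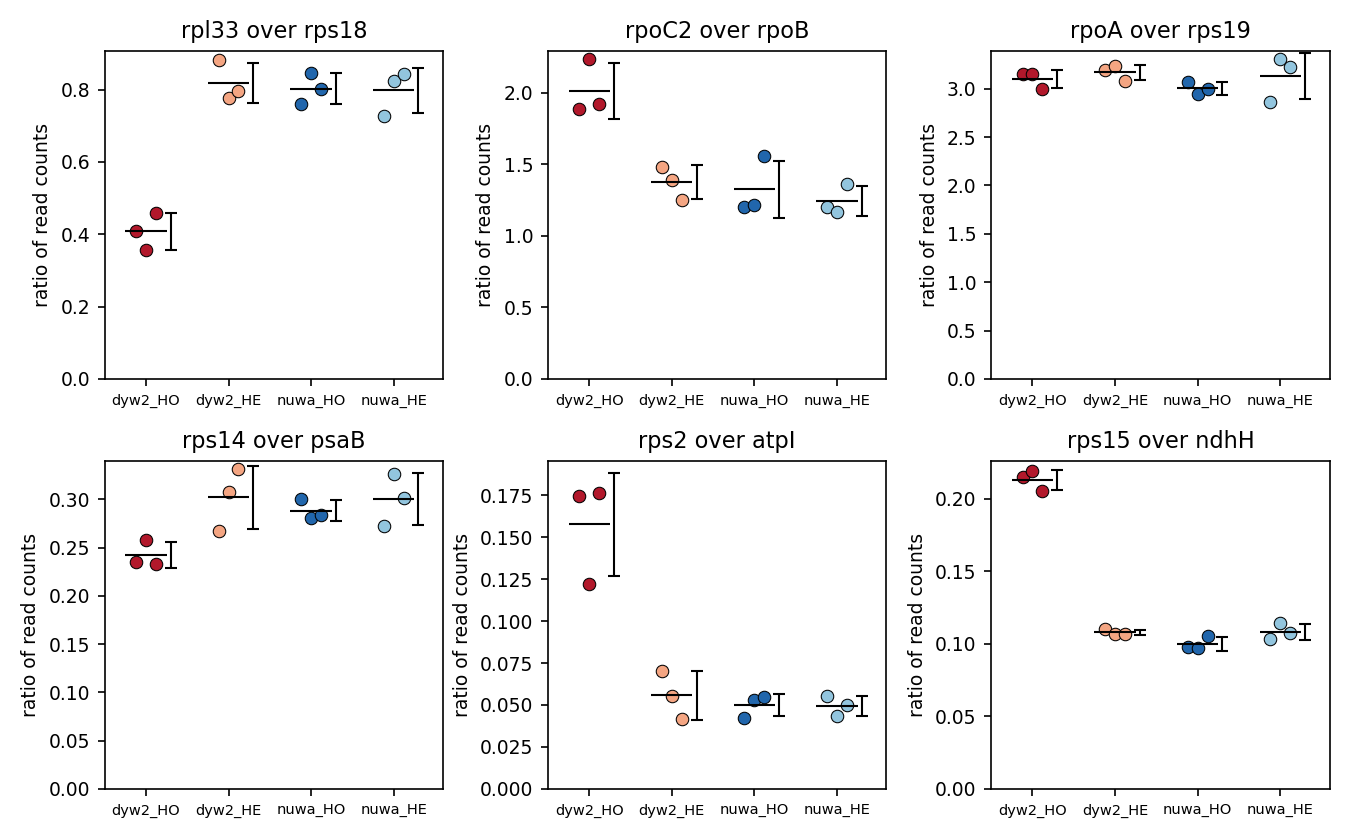
Ratio of read counts of neighbouring plastid genes within each library, 1 point per library, with the group mean as a line and 1 SD as a bar (n = 3). The rpl33 to rps18 ratio lies at 0.355 to 0.460 in dyw2_HO and at 0.777 to 0.881 in dyw2_HE, while the rpoA to rps19 ratio overlaps among the groups.

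Sequences like the bacterial promoter boxes were looked for before the start codons, since PEP reads promoters of that type. The letters TTGACA and TATAAT, 16 to 18 bases apart, were searched on the strand of the gene in the 300 bases before each of 84 plastid coding starts, and the best-matching placement was kept. At least 10 of the 12 letters matched before 16.7% of the starts, and before 3 of the 35 starts of housekeeping genes, of which rpl32 and rps18 are shown. Matches to boxes of other genes in the same window were not removed, and a match is a likeness of letters only. The sequences follow with the 2 boxes in capitals, at Pltd:113191-113220 for rpl32 and Pltd:67629-67658 for rps18, both on the plus strand.
rpl32: TTTACAtatgatgtgaagaaatatTATAAT
rps18: TTGAGAaaattctgtccctattgtTATAAA
The rps18 stretch lies inside the coding sequence of rpl33 printed above. Relative to plastid genes, rpl32 and rps18 were not called in dyw2, whereas with summed plastid counts both were called higher, at log2 changes of 0.94 and 0.51 (edgeR adjusted p = 0.000107 and 0.014).

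Genes grouped by what is known of their promoters overlapped widely. The 7 tested loci with a NEP promoter as background knowledge were rpoB, rpoC1, rpoC2, accD, clpP and both copies of ycf1. They had a median log2 change of -0.34 in dyw2 on the TMM scale, and 2 of them were lower, accD and the short ycf1 copy. That copy rests on few reads, which cannot be told apart from those of ndhF. Of the 20 other tested loci 16 were lower, with a median of -0.55, beside 32.8% of all genes called lower. Among plastid messages, the medians were 1.40 and 1.21. Loci whose messages are edited in Arabidopsis (rpoA, rpoB, rpoC1, rps14, accD, clpP and matK among the tested) had 4 of 7 lower on the TMM scale, with a median of -0.61, beside 14 of 20 and -0.53 for the rest. No test was made between these groups, and the counts do not measure editing.

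Per length, the levels of the housekeeping genes spanned a wide range, and the dyw2_HO libraries changed their order. In reads per kilobase of coding length, scaled to the library total (RPKM), the highest in dyw2_HE was rps14 at 6873 ± 924 (SD, n = 3), then rpl32 at 3822 ± 628, clpP at 2483 ± 130, matK at 2103 ± 193 and rpl14 at 1283 ± 148. In dyw2_HO, rps14 stood at 6244 ± 1104 and clpP at 5676 ± 262, which lie within their spread of each other, followed by rpl32 at 3595 ± 688, with rpl16 at 1953 ± 224 and rpl14 at 1819 ± 232 within their spread of each other. The level of matK was 834 ± 111 RPKM in dyw2_HO, within the spread of rpoA at 849 ± 86.5, while in dyw2_HE matK stood far above rpoA, which was at 497 ± 72.4. At the low end in dyw2_HE, above the short ycf1 copy, were the long ycf1 copy, rpoB, rps12 and rpoC2 at 70.5 ± 8.13, 75.4 ± 12.9, 77.4 ± 13.3 and 81.5 ± 20.4 RPKM, and neighbours in that order did not differ beyond their spread. The short ycf1 copy stood at 0.9 ± 0.1 RPKM in dyw2_HO and 1.0 ± 0.4 in dyw2_HE, a value that the multi-hit filter sets. The nuwa groups kept the order rps14, rpl32, clpP, matK and rpl14 at the top, with 6948 ± 237, 3306 ± 560, 2414 ± 70.0, 1800 ± 158 and 1236 ± 137 RPKM in nuwa_HO and 6066 ± 887, 3509 ± 196, 2312 ± 39.8, 1786 ± 281 and 1073 ± 127 RPKM in nuwa_HE.

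In nuwa, no housekeeping gene was called. On the TMM scale 0 of 27 passed in edgeR, 0 had an unadjusted p under 0.05 and DESeq2 called 0, with log2 changes of nuwa_HO over nuwa_HE between -0.11 and 0.38 and a median of 0.08. Over all genes 2.18% passed in that comparison, 1.54% as higher and 0.636% as lower. On the plastid scale 0 of 27 passed and 0 had an unadjusted p under 0.05, with changes between -0.15 and 0.29, while 0.0801% of all genes passed, 0.066% as higher and 0.0141% as lower. The smallest p-values on the TMM scale were those of rpl14, rps4 and the short ycf1 copy. For rpl14, a protein of the large subunit, the values were 669, 644 and 496 CPM in nuwa_HO and 576, 496 and 517 in nuwa_HE, with a log2 change of 0.19 ± 0.18 (edgeR adjusted p = 0.603). For rps4 they were 725, 565 and 483 CPM in nuwa_HO and 532, 525 and 503 in nuwa_HE, with 0.18 ± 0.18 (edgeR adjusted p = 0.608). For the short ycf1 copy they were 2.24, 1.21 and 1.09 CPM in nuwa_HO and 0.968, 1.21 and 1.31 in nuwa_HE, with 0.38 ± 0.37 (edgeR adjusted p = 0.61). The groups overlapped in each. The genes at the ends of the dyw2 order were close to no change in nuwa, with 0.07 ± 0.21 for rpl33, 0.02 ± 0.24 for matK, 0.05 ± 0.19 for clpP and 0.11 ± 0.22 for rpoC2 on the TMM scale. Standard errors of 0.16 to 0.37 leave room for small changes.

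The difference between the mutants was tested directly, as the dyw2 change minus the nuwa change. On the TMM scale 13 of 27 housekeeping genes were lower and 0 higher, beside 40.9% of all genes called and 21.7% called lower. The difference was -2.91 ± 0.30 for rpl33, -2.68 ± 0.34 for matK, -1.98 ± 0.30 for rps16 and -1.90 ± 0.32 for rps18 (edgeR adjusted p = 3.64e-05, 0.000126, 0.000371 and 0.000765). With library totals in place of TMM 4 were lower and 15 higher, and the share of all genes called in that fit is not given here. Scaled to plastid genes, 20 were higher and 2, rpl33 and matK, were lower, beside 75.4% of all genes called, 71.9% as higher and 3.59% as lower. There clpP differed by 1.64 ± 0.20 and rpoC2 by 1.53 ± 0.28 (edgeR adjusted p = 7.37e-05 and 0.000515). The 5 genes without a call on the plastid scale were rps16, rps18, rps14, rpl32 and the short ycf1 copy.

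Set beside the other plastid genes, the housekeeping genes were the group with the smaller fall in dyw2. On the TMM scale all 32 photosynthesis genes tested were lower in dyw2_HO, with a median log2 change of -2.29 and a range of -3.75 to -1.12, and all 9 ndh genes, which encode the plastid NADH dehydrogenase-like complex, were lower with a median of -2.76. With the housekeeping genes at a median of -0.55, only rpl33 and matK lay beyond the median of the photosynthesis genes. Relative to plastid genes, where 21 housekeeping genes were higher, 2 photosynthesis genes (psaA and psaB) were higher and 20 lower, with a median of -0.54, and 8 of the 9 ndh genes were lower, with a median of -0.97. These classes all belong to the reference of the plastid scale, so opposite signs between them depend in part on where it is centred. The difference between these classes was not tested as such. In nuwa the medians on the TMM scale were 0.08, 0.09 and 0.04 for housekeeping, photosynthesis and ndh genes.

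**Figure D4:**
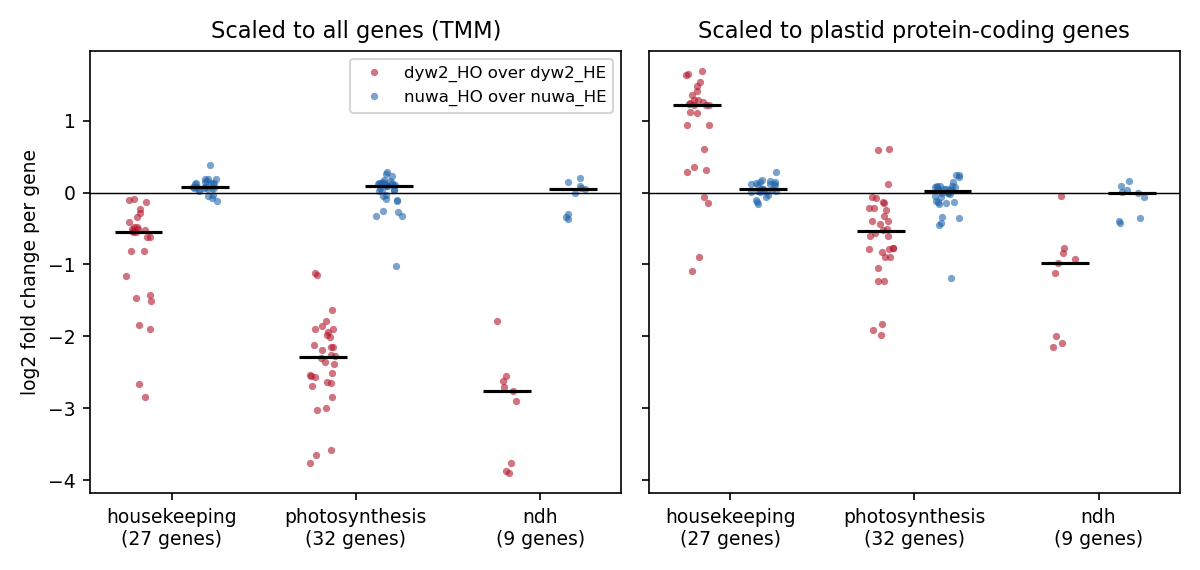
Log2 fold change of each tested plastid gene in dyw2 (red) and nuwa (blue), homozygous over heterozygous, by class, on the TMM scale (left) and the plastid scale (right), with the class median as a line. In dyw2 the medians on the left are -0.55 for housekeeping, -2.29 for photosynthesis and -2.76 for ndh genes, and every class lies near 0 in nuwa.

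Nuclear genes of the plastid transcription machinery were set beside the plastid genes. Both genes of phage-type polymerases in the plastid were higher in both mutants on the TMM scale. RPOTP, the plastid enzyme, changed by 1.45 ± 0.17 (log2) in dyw2 and 1.22 ± 0.17 in nuwa (edgeR adjusted p = 2.17e-05 and 0.00627). RPOTMP, which serves both organelles, changed by 2.71 ± 0.19 in dyw2 and 1.36 ± 0.19 in nuwa (edgeR adjusted p = 7.5e-07 and 0.00627). All 6 sigma factor genes, which guide PEP to its promoters, were lower in dyw2_HO, with a median log2 change of -1.03, and none of the 6 was called in nuwa, where 0 had an unadjusted p under 0.05. The largest falls were those of SIG1 at -1.57 ± 0.30 and SIG2 at -1.42 ± 0.21 (edgeR adjusted p = 0.000748 and 0.000136). Of 12 genes of PEP-associated proteins, 2 were higher and 4 lower in dyw2_HO, with a median of -0.18, a share called below the 62.9% of all genes, and 1, PAP6, was higher in nuwa_HO, by 1.05 ± 0.17. In dyw2 the extremes were PAP12 at -2.75 ± 0.21 and PAP3 at 1.26 ± 0.24 (edgeR adjusted p = 1.32e-06 and 0.000896), and PAP7 at -1.01 ± 0.14 and PAP6 at 0.44 ± 0.17 were also called. The dyw2 change of RPOTMP exceeded its nuwa change by 1.35 ± 0.26 (edgeR adjusted p = 0.00177), and for RPOTP the difference of 0.23 ± 0.24 was not called. The polymerase genes were higher in dyw2_HO on the plastid scale too, and in nuwa their plastid-scale changes of 1.25 and 1.39 had unadjusted p-values under 0.05 but were not called after adjustment. The direction of the other lists depends on the scale: on the plastid scale 4 of the 6 sigma factor genes and 11 of the 12 PEP-associated genes were higher in dyw2_HO, beside 76.6% of all genes.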

How the data were processed

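Counts per gene model were deposited by the authors for 12 libraries. Per the submitters' processing notes, TopHat2, Bowtie2 and TAIR10 were used, and per the file headers reads with equally good hits at several places were removed before counting. Whether counting used the strand is not stated in these sources. From these counts, edgeR 4.0.16 in R 4.3.3 (TMM, filterByExpr with a minimum count of 10, quasi-likelihood test, Benjamini-Hochberg adjustment) was fitted to all 4 groups together for 21213 genes, with 8 residual degrees of freedom. The plastid scale took TMM factors over plastid protein-coding genes, the housekeeping genes included. DESeq2 1.42.0, other filters, scalings and groupings, a replicate block and leaving out each library were tried. Locus names were paired with the TAIR10.1 plastid annotation (RefSeq) by model length for 30 loci, by length and name rule for 2, by TAIR locus name for 2, and by rule only for matK. Counts cover all members, but some single results are not reported here. The members and gene lists were chosen with earlier results of these data known. The script was tested on simulated data. Counts carry no molecular identifiers.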

Additional observations from a re-analysis of the deposited data

Results flagged for a closer look

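The dyw2 change (dyw2_HO over dyw2_HE) was set against the nuwa change (nuwa_HO over nuwa_HE) by the interaction contrast of the edgeR model. At an adjusted p under 0.05, 40.9% of all genes were called on the TMM scale and 75.4% on the plastid scale. Of the 27 tested housekeeping genes, 13 differed on the TMM scale and 22 on the plastid scale. On the TMM scale the dyw2 change minus the nuwa change, in log2, was for 12 of them -2.91 for rpl33, -2.68 for matK, -1.98 for rps16, -1.90 for rps18, -1.89 for the short ycf1 copy, -1.65 for rps14, -1.35 for rpl32, -1.24 for accD, -1.0004 for rpl14, -0.90 for rps15, -0.67 for rpl22 and -0.66 for rpl16. On the plastid scale it was for 20 of them -1.11 for rpl33, -0.86 for matK, 0.58 for accD, 0.77 for rpl14, 0.89 for rps15, 1.05 for rps2, 1.09 for rpoB, 1.104 for rpl22, 1.11 for rps3, 1.12 for rpl16, 1.14 for rps19, 1.16 for rpoA, 1.23 for rpl20, 1.32 for rpl36, 1.34 for rps4, 1.501 for rpoC1, 1.53 for rpoC2, 1.59 for the long ycf1 copy, 1.64 for clpP and 1.84 for rps12. With library totals in place of TMM, rps15, rpl14, rpl16, rpl22 and accD had a positive difference.

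Outside the gene counts, reads removed for mapping equally well to several places made up a mean of 6.01% of mapped reads in dyw2_HO, above the highest library of the other groups at 3.39%. Which loci these reads came from was not tested.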

How the results depend on the processing

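The scaling decided the direction of most housekeeping genes in dyw2. On the TMM scale the titles gave calls in dyw2 where groups from the genotype field gave none. With library totals in place of TMM, an alternative chosen after seeing the data, 4 genes were lower and 19 higher in dyw2, and 4 were lower and 15 higher in the difference between the mutants. The share of all genes called is not given here for this fit, the covariate, the replicate block or the fits that left out a library. Those counts describe the housekeeping genes only. The log2 changes of dyw2_HO over dyw2_HE that turned positive included 0.70 for rps2, 1.04 for rps4, 0.79 for rps3, 0.81 for rps19, 0.51 for rps15, 1.23 for rps12, 0.86 for rpl20, 0.91 for rpl36, 0.50 for rpl14, 0.81 for rpl16, 0.78 for rpl22, 0.77 for rpoA, 0.70 for rpoB, 0.98 for rpoC1, 1.21 for rpoC2, 0.16 for accD, 1.19 for clpP and 1.11 for the long ycf1 copy. The differences between the mutants that turned positive included 0.85 for rps4, 0.64 for rps3, 0.67 for rps19, 0.43 for rps15, 0.77 for rpl20, 0.85 for rpl36, 0.30 for rpl14, 0.64 for rpl16, 0.63 for rpl22, 0.69 for rpoA, 1.04 for rpoC1, 1.08 for rpoC2, 0.085 for accD, 1.13 for clpP and 1.13 for the long ycf1 copy. With summed plastid counts on the plastid scale, rps16 and rps18 turned to 0.45 and 0.51 and, with rpl32 at 0.94 and the short ycf1 copy at 0.89, passed the test as higher, and 1 gene was lower in dyw2 and 1 in the difference. Groups from the genotype field gave 0 lower in dyw2 and 0 in the difference. There dyw2_HO replicate 2, with 31.0% plastid protein-coding counts, joins nuwa_HO replicates 1 and 2, at 66.7% and 60.2%. In turn nuwa_HO replicate 3, at 60.4%, joins dyw2_HO replicates 1 and 3, at 26.5% and 32.4%. In floral gene level nuwa_HO replicate 3, at a mean log2 CPM of 2.95, lay apart from the other libraries of both homozygous groups. What ended the calls was not tested. Without psbA in the denominator, the share differed by 6.997 percentage points in dyw2 and -0.41 in nuwa. Leaving out 1 library at a time gave 10 to 21 genes lower in dyw2 and 9 to 18 in the difference on the TMM scale. The replicate numbers gave no sign of pairing. Same-numbered libraries correlated at -0.005 to 0.167 in their deviations from the group means, and differently numbered ones at -0.236 to 0.184. With 3 libraries per group this check cannot exclude pairing. With the replicate block, 16 genes were lower in dyw2, 9 in the difference and 0 were called in nuwa. On the plastid scale rpl33 and matK stayed lower in every fit that left out a library. The short ycf1 copy rests on 12 to 103 counts per library.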
